A study of Mus musculus with 8 samples.

Results

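Whole choroid plexus of the hindbrain was compared with whole choroid plexus of the telencephalon in mouse embryos, with 2 RNA sequencing libraries a side. These 4 libraries, of 8 in the series, were chosen by their labels alone. All embryos were E18.5 (late gestation), of CD1, an outbred strain, and the labels name no treatment or allele for them. Telencephalic tissue came from the lateral ventricles and hindbrain tissue from the fourth ventricle. Per the series' design text, both regions were dissected from each brain, so replicate 1 of either region shares its brains, and so does replicate 2. The labels give no number of embryos. The other 4 libraries hold epithelial cells sorted for the reporter Ttr::RFP, a red fluorescent protein under the promoter of transthyretin, from hindbrain or telencephalic choroid plexus of the same strain and age. Their labels carry other numbers than those of the whole tissue. They are used here to set the whole-tissue differences beside those in sorted cells, and they also enter the fit. The gene filter and the estimate of spread behind each whole-tissue SE and p-value are thus shared over all 8 libraries.

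The choroid plexus is a fold of secretory epithelium over a vascular stroma that hangs into each brain ventricle and makes cerebrospinal fluid. Its epithelium arises from the dorsal midline of the neural tube, so the plexus of each ventricle starts from neuroepithelium with its own position along the head-to-tail axis. Hox transcription factors mark the hindbrain and the levels behind it, while factors of the Emx and Dmrt families mark the forebrain. The roof plate and its derivatives are also sources of Wnt, bone morphogenetic protein (BMP) and, in the hindbrain plexus, Hedgehog signals.

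Total counts per library ranged from 8849053 to 21932900. Values are given as CPM (read counts relative to library size, scaled by edgeR's TMM factors), and differences as fitted log2 fold changes ± SE, hindbrain minus telencephalic, with n = 2 libraries a group. Replicates differed by more than sampling noise, with a chi-square per degree of freedom of 5.16 in telencephalic and 12.35 in hindbrain tissue, so none was a copy of another. The sorted libraries, which share the fit, had 15.84 in telencephalic and 61.09 in hindbrain cells. Xist, made from the inactive X chromosome, and the Y-linked Ddx3y stood between 912 and 1556 CPM and between 16.6 and 46 CPM in the whole-tissue libraries, so each held RNA of both sexes, that is of more than 1 embryo. Markers of the choroid epithelium were present in every library. Transthyretin (Ttr), the thyroid hormone carrier that the epithelium secretes, stood at 187027 and 172085 CPM in telencephalic and at 139350 and 140855 CPM in hindbrain tissue. Both hindbrain values lay below both telencephalic ones, but the difference did not pass the test (log2 fold change -0.36 ± 0.13, adjusted p = 0.144, edgeR). That result does not show equal levels. The choroid regulator Otx2 stood at 522 and 476 CPM against 519 and 519 CPM, and the water channel Aqp1 at 523 and 432 CPM against 511 and 498 CPM. The roof plate factor Lmx1a stood at 141 and 107 CPM against 128 and 105 CPM. The regions overlapped for these 3 genes, which did not pass the test, with adjusted p-values of 0.883 for Otx2, 0.841 for Aqp1 and 0.834 for Lmx1a.

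Of 15698 genes tested, 909 (5.79%) differed between the regions at an adjusted p below 0.05 and are said to be called. The counts of called list members below are to be read beside this share. Hindbrain tissue was higher for 524 (3.34%) and lower for 385 (2.45%), and 2583 genes had an unadjusted p below 0.05. Scaled by library totals alone, 614 genes were higher and 255 lower. Fitted from the whole-tissue libraries alone, 1587 genes were called, 920 higher and 667 lower. The higher genes included the larger differences. More than 16-fold differences were fitted for 45 higher and 10 lower genes, and more than 4-fold differences for 129 higher and 36 lower genes. The median log2 fold change was 1.27 over called higher genes, -0.84 over called lower genes and 0.005 over all genes tested. Every called gene had the same sign in both replicate numbers and no overlap between the groups, which held for 51.6% of all genes tested. The share called grew with the level of the higher group, from 3.59% of genes between 1 and 10 CPM to 11.4% of those at 100 CPM or more. Leaving out telencephalic replicate 1 left 316 calls, telencephalic replicate 2 380, hindbrain replicate 1 561 and hindbrain replicate 2 476. Calls that stood without each of the 8 libraries in turn numbered 272, of which 159 were higher and 113 lower, and the genes named below are among them except where a p is given without a library. Here and below, a count of calls without a named library covers all calls of that refit, newly called genes included. The plot of fold change against level shows where the named genes lie.

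**Figure D1:**
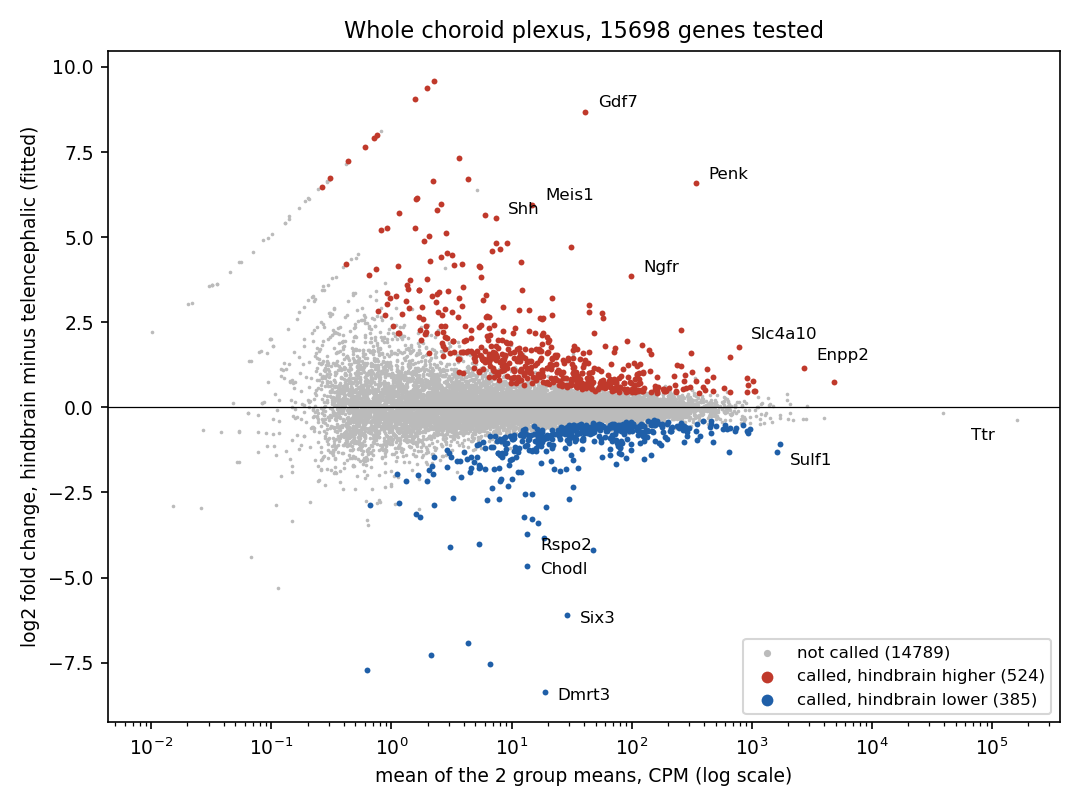
Each point is 1 of the 15698 genes tested: mean of the 2 group means in CPM (log scale) against the fitted log2 fold change, hindbrain minus telencephalic whole choroid plexus. Red points are the 524 genes called higher and blue points the 385 called lower in hindbrain tissue; fitted values in the thin diagonal lines at the left belong to genes with few or no counts in 1 group and are not bounds.

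Promoters of 4 positional regulators are shown first, since genes of these families are described next. Of 22 called genes among the Hox, hindbrain and forebrain regulators, 16 had a promoter in the RefSeq table of build GRCm38.p6, each of 300 bases from 250 before to 50 after the start. A total of 3 motifs was searched on both strands: TGACAG (the Meis core), TGATNNAT (the Hox-Pbx composite) and TAATTA (a homeodomain core). A match was found in 5 of the 16: Emx2, Hoxa2, Hoxa3, Nr2e1 and Six3. Of 27025 promoters in the table, of genes tested or not, 29.8% held at least 1 of the motifs. That share was not computed for the tested genes alone, whose shares for each motif are given below. Singly, TGACAG occurred in 19.3% of them, TGATNNAT in 9.04% and TAATTA in 5.31%. Capitals mark the matches in the 4 promoters below, which were chosen after the matches were known. Those of Hoxa2 (chr6:52164782-52165081, minus strand) and Hoxa3 (chr6:52213018-52213317, minus strand) belong to genes higher in hindbrain tissue. Those of Six3 (chr17:85620584-85620883, plus strand) and Emx2 (chr19:59458440-59458739, plus strand) belong to genes higher in telencephalic tissue.
Hoxa2: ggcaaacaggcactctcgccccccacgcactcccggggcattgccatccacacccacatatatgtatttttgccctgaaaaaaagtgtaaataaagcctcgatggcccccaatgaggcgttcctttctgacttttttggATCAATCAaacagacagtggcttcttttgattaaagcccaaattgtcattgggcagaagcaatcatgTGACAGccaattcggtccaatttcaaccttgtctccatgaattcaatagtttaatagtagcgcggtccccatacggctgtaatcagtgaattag
Hoxa3: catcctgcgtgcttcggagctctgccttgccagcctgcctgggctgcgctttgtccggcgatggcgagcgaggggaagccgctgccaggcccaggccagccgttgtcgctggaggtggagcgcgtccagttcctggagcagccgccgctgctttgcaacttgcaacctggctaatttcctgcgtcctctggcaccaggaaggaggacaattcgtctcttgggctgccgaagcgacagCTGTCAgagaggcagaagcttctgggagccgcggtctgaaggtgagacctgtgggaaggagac
Six3: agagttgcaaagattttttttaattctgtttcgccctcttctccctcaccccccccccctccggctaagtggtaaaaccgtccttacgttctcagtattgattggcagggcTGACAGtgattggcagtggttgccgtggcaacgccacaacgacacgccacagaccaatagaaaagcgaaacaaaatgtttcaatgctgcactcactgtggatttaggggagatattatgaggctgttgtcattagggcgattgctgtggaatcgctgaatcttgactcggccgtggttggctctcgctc
Emx2: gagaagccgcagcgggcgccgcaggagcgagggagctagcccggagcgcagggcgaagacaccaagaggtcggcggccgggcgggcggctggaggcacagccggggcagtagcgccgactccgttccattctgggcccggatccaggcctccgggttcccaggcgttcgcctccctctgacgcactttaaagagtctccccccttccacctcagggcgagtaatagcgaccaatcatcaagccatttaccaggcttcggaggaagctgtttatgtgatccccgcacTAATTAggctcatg
The Hoxa2 window held 1 Hox-Pbx and 1 Meis match, those of Hoxa3 and Six3 1 Meis match each, and that of Emx2 1 homeodomain match. The matches are letters in these windows, and binding was not measured. Among called genes with a promoter in the table, TGACAG occurred in 14.7% of 368 higher and 18.8% of 250 lower genes, beside 16.8% of the 10945 genes tested. TAATTA occurred in 3.8% of the higher and 5.2% of the lower genes, beside 2.75% of those tested, and TGATNNAT in 4.89% and 4.0%, beside 4.32%. These shares are descriptions, with no test.

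Hox genes were detected almost only in hindbrain tissue. Of 7 Hox genes tested, 6 were higher and none lower, against 5.79% of all genes called, and 3 remained when telencephalic replicate 1, telencephalic replicate 2 or hindbrain replicate 1 was left out. Hoxa2, which patterns the anterior hindbrain, had 0 and 1 counts in telencephalic tissue and 186 and 146 in hindbrain tissue, a ratio of 187-fold with a 95% counting interval from 33.3 to 7405. Hoxa3 had 0 counts in both telencephalic libraries and 123 and 86 in hindbrain tissue, at least 39.2-fold higher by a floor of 3 counts over the group. Hoxb3 was also at 0 in telencephalic tissue, with 88 and 93 counts in hindbrain tissue, at least 34-fold higher. The fitted median of the 7 genes was 7.33, and 3.63 with groups of 0 counts at that floor.

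Several regulators that work with Hox proteins or mark hindbrain territory were higher in hindbrain tissue. Of 18 tested, 6 were higher and none lower (33.3%), 15 were positive in sign, the median log2 fold change was 2.11, and 5 stood without each library in turn. Meis1, a homeodomain cofactor of Hox proteins, stood at 0.367 and 0.629 CPM in telencephalic and at 36.3 and 22.4 CPM in hindbrain tissue. The difference was 5.96 ± 0.42 (adjusted p = 5.19e-06). Its relative Meis2 was present in both regions, at 8.13 and 7.34 CPM against 27.9 and 28.9 CPM, a difference of 1.87 ± 0.19 (adjusted p = 8.28e-05). Pbx3, another Hox cofactor, stood at 19.2 and 18 CPM against 42 and 48.8 CPM, the smallest called difference of the list at 1.28 ± 0.17 (adjusted p = 0.000534). Irx2, an Iroquois factor, had 0 counts in telencephalic tissue and 97 and 50 in hindbrain tissue, at least 27.6-fold higher. En2, an Engrailed factor of the midbrain-hindbrain boundary, stood at 0.306 and 0.21 CPM against 3.55 and 3.87 CPM, a difference of 3.76 ± 0.45 (adjusted p = 0.000252).

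Among 19 regulators of the roof plate and the choroid plexus, 3 were higher and none lower in hindbrain tissue, and all 3 stood without each library in turn. The 3 calls made up 15.8% of the list, against 5.79% of all genes. Lmx1b, a LIM homeodomain factor related to Lmx1a, had 2 and 0 counts in telencephalic tissue and 144 and 242 in hindbrain tissue, a ratio of 109-fold with a counting interval from 29.9 to 901. The pair therefore differed in pattern: Lmx1a was present at similar levels in both regions and did not pass the test. Rfx4, a winged-helix factor of the dorsal midline, stood at 0.856 and 0.524 CPM against 7.94 and 5.33 CPM, a difference of 3.20 ± 0.41 (adjusted p = 0.00046). Esrrg, an orphan nuclear receptor, stood at 40 and 35.4 CPM against 134 and 159 CPM. Its difference of 1.96 ± 0.14 (adjusted p = 4.4e-06) was among 3 higher and 2 lower calls in 41 nuclear receptors, of which 1 and 2 were left without telencephalic replicate 1.

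Forebrain regulators mostly showed the opposite direction, though 6 of the 18 tested were positive in sign. Eomes was among the higher calls of this list and is described with the neuronal genes below. Of 18 tested, 8 were lower and 2 higher in hindbrain tissue (55.6%), with a median of -2.44, and without telencephalic replicate 1 6 were lower and none higher. Dmrt3, a zinc finger factor of the doublesex group, stood at 38.6 and 36.6 CPM in telencephalic and at 0.121 and 0.0944 CPM in hindbrain tissue. This was the lowest fitted value among the called genes, -8.36 ± 0.46 (adjusted p = 7.44e-07). Its relative Dmrta2 had 206 and 133 counts in telencephalic and 3 and 0 in hindbrain tissue, a ratio of 201-fold with a counting interval from 68.1 to 978. Emx2, which patterns the cortex and its medial edge, had 149 and 76 counts against 2 and 1, a ratio of 133-fold with an interval from 45 to 651. Six3, required for the anterior forebrain, stood at 58 and 56.3 CPM against 0.685 and 0.991 CPM, a difference of -6.10 ± 0.26 (adjusted p = 1.58e-07). The transcript Six3os1 overlaps Six3 on the opposite strand and the protocol marks no strand, so reads of the pair cannot be told apart. Otx1, a forebrain and midbrain relative of Otx2, stood at 28.6 and 24.7 CPM against 2.42 and 3.12 CPM, a difference of -3.28 ± 0.26 (adjusted p = 1.09e-05). Nr2e1, an orphan nuclear receptor of forebrain progenitors, stood at 8.93 and 12.6 CPM against 1.45 and 1.79 CPM, a difference of -2.72 ± 0.31 (adjusted p = 0.000201).

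**Figure D2:**
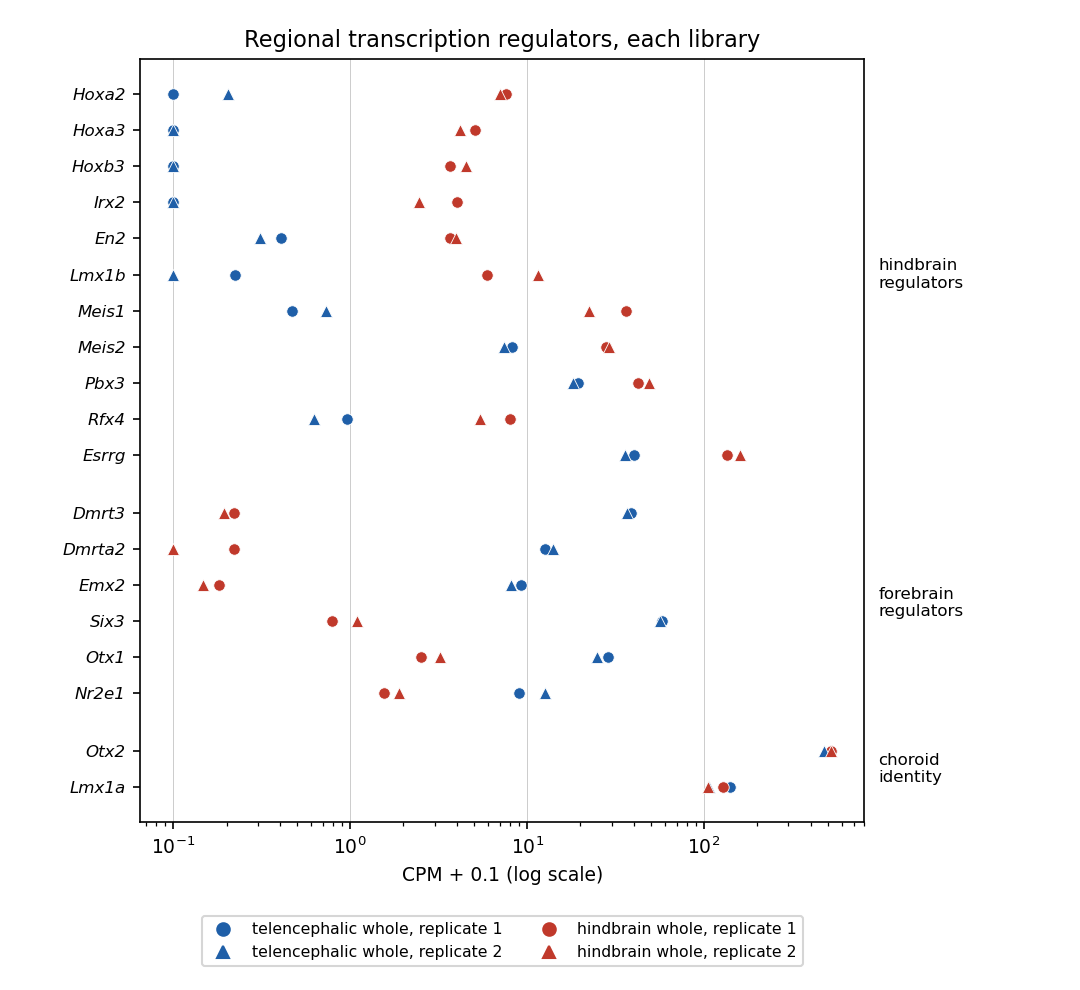
CPM + 0.1 (log scale) of 19 transcription regulators in each of the 4 whole-tissue libraries; blue is telencephalic and red hindbrain, circles are replicate 1 and triangles replicate 2. Red and blue separate for every hindbrain and forebrain regulator drawn, while Otx2 and Lmx1a of the choroid plexus lie together.

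The Hedgehog ligand was detected mainly in hindbrain tissue. Shh, which acts on receptors of the Patched family, stood at 0.489 and 0 CPM in telencephalic and at 12.1 and 16.9 CPM in hindbrain tissue, a difference of 5.56 ± 0.50 (adjusted p = 3.7e-05). Hhip, a membrane protein that binds Hedgehog ligands and is induced by the pathway, stood at 10.4 and 13.2 CPM against 28.9 and 38.7 CPM. It was higher in both hindbrain libraries, by 1.53 ± 0.22 (adjusted p = 0.00116). Over the pathway, 5 of 15 genes tested were higher and 1 lower, with 3 higher without telencephalic replicate 1 and 2 without telencephalic replicate 2, and in those fits none was lower.

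Transcripts of the BMP pathway differed for 1 ligand of wide gap and for several target or transducer genes, and signalling itself was not measured. Gdf7, a roof plate ligand of the BMP family, stood at 0.245 and 0.105 CPM in telencephalic and at 61.5 and 103 CPM in hindbrain tissue. It was close to absent in either telencephalic library, and the difference was 8.69 ± 0.57 (adjusted p = 2.29e-06). Of 14 BMP and GDF ligands tested, 2 were higher and 2 lower, and Gdf7 was the only call that stood without each library in turn (1 call without telencephalic replicate 1 or hindbrain replicate 2, 2 without telencephalic replicate 2 or hindbrain replicate 1). Of 35 receptors, antagonists and targets of the pathway, 6 were higher and none lower, and 3 were higher without telencephalic replicate 1 or 2. Id4, an inhibitor of basic helix-loop-helix factors that BMP signals induce, stood at 17.4 and 13.9 CPM against 42.9 and 43.1 CPM, a difference of 1.44 ± 0.16 (adjusted p = 0.000151). Smad9, a receptor-regulated transducer of BMP signals, stood at 13.1 and 13.8 CPM against 29.8 and 28.7 CPM, a difference of 1.12 ± 0.15 (adjusted p = 0.000644).

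Wnt genes were called in both directions. Of 12 ligands tested, 3 were higher and 1 lower, and 2 were higher without telencephalic replicate 1 or hindbrain replicate 2. Wnt5a, a ligand that mostly acts without beta-catenin, stood at 70.5 and 75.7 CPM in telencephalic and at 224 and 206 CPM in hindbrain tissue, a difference of 1.56 ± 0.11 (adjusted p = 7.11e-06). Wnt4 stood at 2.81 and 4.72 CPM against 16.5 and 16.8 CPM, a difference of 2.18 ± 0.32 (adjusted p = 0.00128). Both ligands were thus higher in both hindbrain libraries. Wls, the carrier that brings Wnt proteins to the cell surface, stood at 78.5 and 84.4 CPM against 158 and 174 CPM, a difference of 1.03 ± 0.11 (adjusted p = 0.000155). Of 10 Frizzled receptors, 3 were higher, and Fzd5 alone stood without each whole-tissue library in turn (0.92 ± 0.14, adjusted p = 0.00168). The antagonist Sfrp2 stood at 7.34 and 9.12 CPM against 18.1 and 23.6 CPM (1.35 ± 0.20, adjusted p = 0.00128). The secreted Dickkopf relative Dkk3 stood at 14.5 and 15.3 CPM against 40 and 37.9 CPM (1.39 ± 0.21, adjusted p = 0.00149).

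R-spondins, secreted proteins that raise the response of cells to Wnt ligands, went the other way. Rspo2 stood at 23.5 and 26.8 CPM in telencephalic and at 1.77 and 2.08 CPM in hindbrain tissue, a difference of -3.71 ± 0.20 (adjusted p = 6.51e-07). Rspo3 stood at 11.5 and 15.1 CPM against 2.86 and 3.3 CPM, a difference of -2.10 ± 0.27 (adjusted p = 0.000508). Both were lower in each hindbrain library than in either telencephalic one. Over 33 Wnt receptors, modulators and targets, 4 were higher and 3 lower, with a median of 0.01.

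Retinoic acid genes differed in opposite directions at successive steps. Rdh10, which oxidises retinol, was lower in hindbrain tissue, at 152 and 138 CPM against 81.4 and 83.7 CPM (-0.81 ± 0.11, adjusted p = 0.00076). Aldh1a2, which makes retinoic acid from retinal and is also a marker of meningeal mesenchyme, was higher, at 1.28 and 1.05 CPM against 26 and 20 CPM (4.27 ± 0.38, adjusted p = 3.45e-05). In all, 3 of 21 genes tested were higher and 1 lower (19%, against 5.79% of all genes).

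Growth factor receptors of the neurotrophin and GDNF systems were among the wide gaps. Ngfr, the low-affinity neurotrophin receptor, stood at 12.7 and 12.6 CPM in telencephalic and at 148 and 218 CPM in hindbrain tissue. Every hindbrain value was over every telencephalic value, and the difference was 3.86 ± 0.25 (adjusted p = 1.96e-06). Gfra1, the GDNF co-receptor, stood at 0.734 and 0.419 CPM against 19.5 and 15.9 CPM, a difference of 4.84 ± 0.58 (adjusted p = 0.000254). Ntrk3, the receptor of neurotrophin-3, stood at 1.16 and 0.734 CPM against 6.29 and 6.04 CPM, a difference of 2.65 ± 0.41 (adjusted p = 0.00175). Ptn, the secreted growth factor pleiotrophin, stood at 33.7 and 37.1 CPM against 115 and 101 CPM, a difference of 1.62 ± 0.22 (adjusted p = 0.000786). The list held 29 tested genes, of which 6 were higher and 2 lower; without telencephalic replicate 1 the counts were 4 and 0, and without telencephalic replicate 2 5 and 0.

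In the Notch list, Dlk1, an imprinted membrane protein related to Notch ligands, was the call that stood without each library in turn. It stood at 5.38 and 4.72 CPM against 33.7 and 27.6 CPM, a difference of 2.59 ± 0.19 (adjusted p = 7.47e-06). The list of 21 genes had 3 higher and 2 lower calls, with 1 call left without either telencephalic library and 2 without either hindbrain library. Insulin-like growth factor genes also differed. Igf1 stood at 81.6 and 84.2 CPM against 155 and 176 CPM, a difference of 1.00 ± 0.11 (adjusted p = 0.00021). Igf2, an imprinted growth factor made by choroid plexus, stood at 4019 and 3297 CPM against 6983 and 5159 CPM (0.73 ± 0.16, adjusted p = 0.0137), with adjusted p = 0.188 without telencephalic replicate 2 and 0.128 without hindbrain replicate 1. Igfbp3, a secreted binding protein of these factors, was lower, at 117 and 107 CPM against 34.5 and 36.9 CPM (-1.65 ± 0.22, adjusted p = 0.000651). The system as a whole had 4 higher and 2 lower genes of 22, and 2 and 1 without telencephalic replicate 2.

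Penk, which encodes the precursor of enkephalin peptides, had one of the widest gaps at a high level. It stood at 8.32 and 5.45 CPM in telencephalic and at 649 and 715 CPM in hindbrain tissue, a difference of 6.59 ± 0.33 (adjusted p = 3.68e-07). Of 21 neuropeptide and hormone precursors tested, only Penk and Igf2 were called, and Penk alone without telencephalic replicate 2 or hindbrain replicate 1.

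Receptors for hormones and transmitters were called in both directions, and Trhr is not in the receptor list counted below. Trhr, the receptor of thyrotropin-releasing hormone, stood at 0.55 and 0.629 CPM in telencephalic and at 10.6 and 9.96 CPM in hindbrain tissue, a difference of 4.13 ± 0.34 (adjusted p = 1.59e-05). Tshr, the receptor of thyrotropin, went the other way, at 16.4 and 29.1 CPM against 1.65 and 3.21 CPM (-3.23 ± 0.38, adjusted p = 0.000243). The leptin receptor Lepr stood at 235 and 243 CPM against 107 and 115 CPM (-1.11 ± 0.12, adjusted p = 0.000152). The melanocortin receptor Mc3r stood at 11.9 and 10.9 CPM against 2.42 and 2.03 CPM (-2.36 ± 0.31, adjusted p = 0.000578). The muscarinic receptor Chrm1 stood at 16.6 and 18.9 CPM against 5.16 and 4.34 CPM (-1.89 ± 0.28, adjusted p = 0.00122). Lepr, Mc3r and Chrm1 were the 3 calls of the receptor list that stood without each library in turn. That list of 34 genes had 3 higher and 4 lower calls, 1 and 3 without telencephalic replicate 1 and 0 and 3 without telencephalic replicate 2. The endothelin receptor Ednrb was also lower, at 579 and 570 CPM against 311 and 374 CPM (-0.75 ± 0.12, adjusted p = 0.00226).

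**Figure D3:**
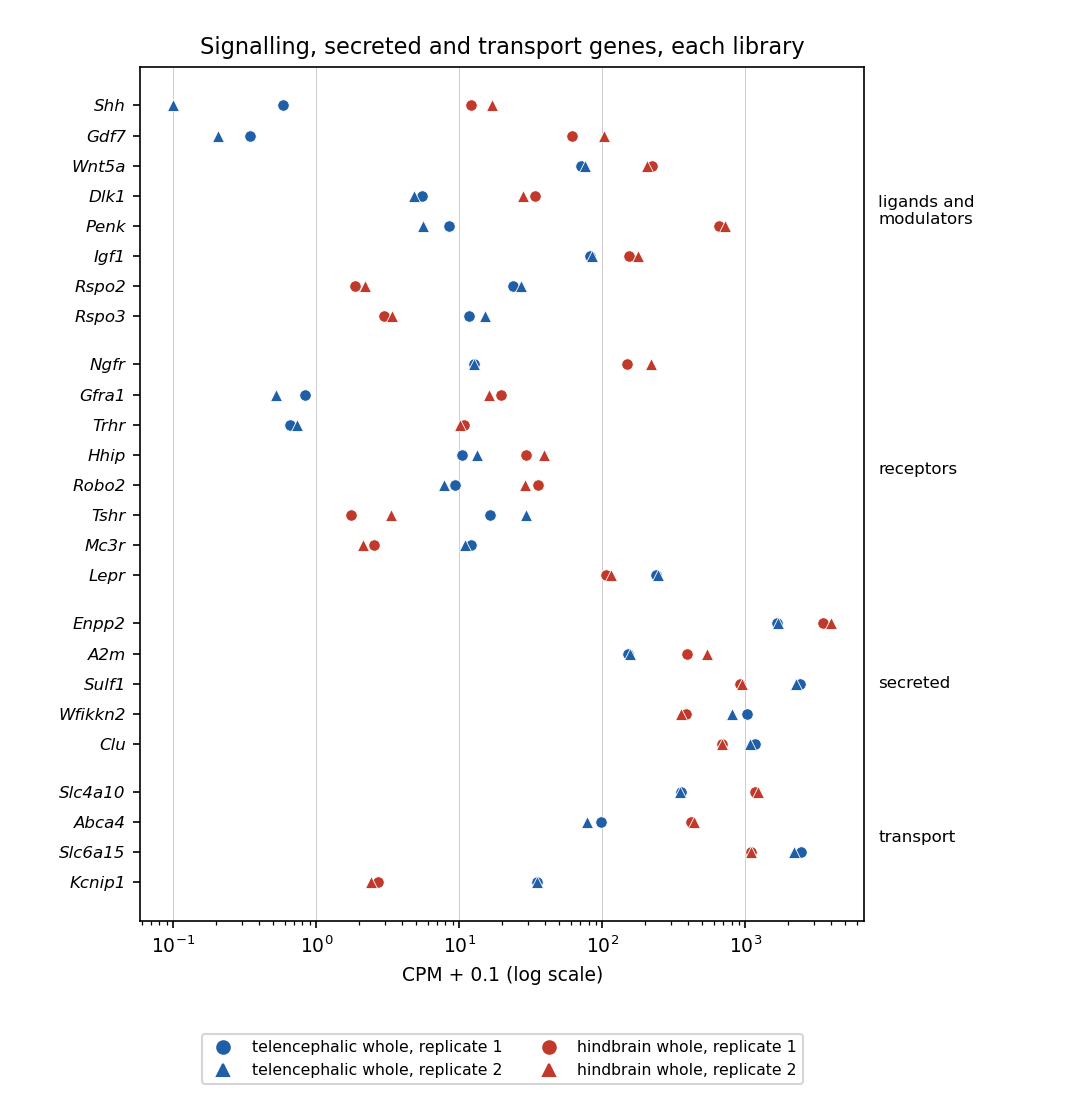
CPM + 0.1 (log scale) of 25 signalling, secreted and transport genes in each of the 4 whole-tissue libraries; blue is telencephalic and red hindbrain, circles are replicate 1 and triangles replicate 2. The regions do not overlap for any gene drawn, and the gap is widest for Shh, Gdf7 and Penk.

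Axon guidance and adhesion genes were called in both directions. Slit3, a secreted repellent, was lower in hindbrain tissue, at 210 and 205 CPM against 101 and 110 CPM (-0.98 ± 0.11, adjusted p = 0.000151). Robo2, a receptor of Slit proteins, was higher, at 9.23 and 7.65 CPM against 35.5 and 28.7 CPM (1.92 ± 0.18, adjusted p = 5.65e-05). Ligand and receptor thus differed in opposite directions. Of 17 genes of the Slit, Robo, netrin and Unc5 families, 4 were higher and 1 lower, and Robo2 and Slit3 were the 2 calls left without telencephalic replicate 1, telencephalic replicate 2 or hindbrain replicate 1. Epha4 (1.00 ± 0.12, adjusted p = 0.000352) and its ligand Efna5 (0.88 ± 0.13, adjusted p = 0.00108) were both higher. The Eph and ephrin family of 21 had 5 higher and 1 lower call, with 2 calls left without telencephalic replicate 1 or hindbrain replicate 2 and 3 without telencephalic replicate 2 or hindbrain replicate 1. Contactin Cntn4 stood at 50.2 and 54.1 CPM against 7.7 and 8.26 CPM (-2.71 ± 0.22, adjusted p = 1.61e-05). Neuritin, Nrn1, stood at 32.2 and 28.8 CPM against 4.48 and 1.23 CPM (-3.39 ± 0.41, adjusted p = 0.000291). Chodl, a membrane lectin, stood at 22.1 and 30 CPM against 0.887 and 1.18 CPM (-4.65 ± 0.27, adjusted p = 8.62e-07). These 3 surface or secreted proteins were lower in each hindbrain library.

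Protocadherins, a large family of cell adhesion proteins, were mostly below 0 in sign but seldom called. Only 10 of 55 tested had a positive fold change (15 when scaled by library totals), and the median was -0.35 (-0.27), beside 0.005 over all genes. Calls numbered 1 higher and 1 lower (3.64%, against 5.79% of all genes), and 4 with the replicate number as a block in the fit. Pcdh9 was the higher call, at 19.4 and 28.3 CPM against 58.5 and 54.7 CPM (1.26 ± 0.17, adjusted p = 0.000701), and it was the 1 call left without telencephalic replicate 1, telencephalic replicate 2, hindbrain replicate 2 or either sorted telencephalic library. Classical and type II cadherins had 4 higher and 3 lower calls of 21, with 1 left without telencephalic replicate 1, 2 without telencephalic replicate 2, 4 without hindbrain replicate 1 and 3 without hindbrain replicate 2. Cdh26 stood without each of the 8 libraries, at 11.6 and 12.6 CPM against 3.59 and 3.49 CPM (-1.77 ± 0.24, adjusted p = 0.000669).

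Several abundant secreted products of the choroid plexus differed, in both directions. Of 34 tested, 10 were higher and 4 lower in hindbrain tissue (41.2%), 6 and 1 without telencephalic replicate 1, and 5 and 1 without telencephalic replicate 2. Enpp2, or autotaxin, which makes the lipid mediator lysophosphatidic acid, stood at 1660 and 1699 CPM in telencephalic and at 3490 and 3975 CPM in hindbrain tissue. The difference was 1.15 ± 0.12 (adjusted p = 0.000141). The protease inhibitor A2m stood at 151 and 155 CPM against 389 and 542 CPM (1.61 ± 0.14, adjusted p = 3.7e-05). Extracellular superoxide dismutase, Sod3, stood at 19.1 and 20 CPM against 61.6 and 56.4 CPM (1.59 ± 0.14, adjusted p = 3.03e-05). The protease inhibitor Pi15 stood at 7.46 and 12.5 CPM against 72.5 and 82.8 CPM (3.0 ± 0.22, adjusted p = 8.05e-06). These 4 were higher in hindbrain tissue.

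Other secreted products were higher in telencephalic tissue. Sulf1, a sulfatase that trims heparan sulfate outside the cell, stood at 2399 and 2256 CPM against 916 and 953 CPM (-1.32 ± 0.12, adjusted p = 5.62e-05). Wfikkn2, a protein that binds growth factors of the myostatin group, stood at 1020 and 805 CPM against 385 and 352 CPM (-1.31 ± 0.13, adjusted p = 7.16e-05). The chaperone clusterin, Clu, stood at 1170 and 1076 CPM against 687 and 690 CPM (-0.71 ± 0.11, adjusted p = 0.00226). The groups did not overlap for any of them. Coagulation factor F5 stood at 109 and 125 CPM against 42.1 and 49 CPM (-1.36 ± 0.14, adjusted p = 8.27e-05). In the complement and coagulation list of 38, F5 was 1 of 2 lower calls, C3 and Vwf were the 2 higher ones, and the list had 8 calls with the replicate number as a block. The share called in the main fit was 10.5%, against 5.79% of all genes.

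Transport genes of the epithelium were called in both directions. Slc4a10, a sodium-dependent bicarbonate transporter of the basolateral membrane, stood at 353 and 348 CPM in telencephalic and at 1166 and 1232 CPM in hindbrain tissue, a difference of 1.77 ± 0.11 (adjusted p = 1.42e-06). Slc4a5, a bicarbonate cotransporter of the apical membrane, stood at 742 and 784 CPM against 1145 and 1456 CPM (0.77 ± 0.14, adjusted p = 0.00544). Its adjusted p was 0.091 without telencephalic replicate 1, 0.0521 without telencephalic replicate 2 and 0.0617 without hindbrain replicate 2. Of 33 ion and water transport genes, 4 were higher and 3 lower. Slc4a10 was 1 of the 2 calls left without telencephalic replicate 1 or 2, and 3 calls were left without hindbrain replicate 2 and 4 without either sorted telencephalic library.

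Over all 261 solute carriers tested, 17 were higher and 13 lower (11.5%), with a median of 0.02, beside 5.79% of all genes and 11.4% of genes at 100 CPM or more. Calls fell to 10 without telencephalic replicate 1, 15 without telencephalic replicate 2, 19 without hindbrain replicate 1 and 18 without hindbrain replicate 2. Slc16a10, a carrier of aromatic amino acids and thyroid hormones, was higher in hindbrain tissue, at 159 and 148 CPM against 345 and 368 CPM (1.21 ± 0.11, adjusted p = 4.95e-05). Slc6a15, a carrier of branched-chain amino acids, was lower, at 2465 and 2202 CPM against 1099 and 1093 CPM (-1.09 ± 0.11, adjusted p = 9.26e-05). Both gaps were wide next to the spread within a region. The zinc carrier Slc39a10 stood at 173 and 175 CPM against 91.8 and 97.4 CPM (-0.88 ± 0.11, adjusted p = 0.000406). The organic anion carrier Slc22a8 stood at 160 and 157 CPM against 80.4 and 95.8 CPM (-0.85 ± 0.12, adjusted p = 0.00105). Of 47 genes of nutrient, metal and hormone transport, 6 were higher and 9 lower, and 3 calls were left without telencephalic replicate 1, 5 without telencephalic replicate 2, 8 without hindbrain replicate 1 and 7 without hindbrain replicate 2. The folate receptor Folr1, which carries folate across the epithelium, was lower, at 897 and 873 CPM against 572 and 601 CPM (-0.59 ± 0.10, adjusted p = 0.00416), with adjusted p = 0.0592 without telencephalic replicate 1.

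Abca4, a lipid flippase of the ABC family best known from the retina, stood at 97.9 and 78 CPM in telencephalic and at 415 and 435 CPM in hindbrain tissue (2.27 ± 0.14, adjusted p = 1.42e-06). It was 1 of 4 called genes among 40 ABC transporters (10%, against 5.79% of all genes), and 2 were left without either telencephalic library. Among 61 potassium channel genes, 3 were higher and 4 lower (11.5%, against 5.79% of all genes). Kcnip1, an accessory subunit of A-type potassium channels, stood at 34.9 and 34.9 CPM against 2.58 and 2.31 CPM (-3.83 ± 0.36, adjusted p = 5.32e-05). Kcnd3, a pore subunit of such channels, stood at 7.16 and 5.97 CPM against 30.2 and 28 CPM (2.13 ± 0.23, adjusted p = 0.000152). Accessory and pore subunit thus differed in opposite directions. The potassium channel list had 3 calls left without any 1 of the whole-tissue libraries and 13 with the replicate number as a block. Among claudins, the strands of tight junctions, 3 of 13 were higher and 1 lower, and 2 calls were left without telencephalic replicate 1 or hindbrain replicate 2. Cldn10 was lower, at 16.3 ± 3.13 CPM (SD, n = 2) against 3.79 ± 1.09 CPM (-2.10 ± 0.26, adjusted p = 0.000351). Cldn9 was higher, at 4.77 and 4.51 CPM against 12.1 and 11.1 CPM (1.32 ± 0.20, adjusted p = 0.00136).

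Genes of the extracellular matrix were called in both directions. Of 46 matrix and basement membrane genes, 8 were higher and 11 lower (41.3%), and without telencephalic replicate 1 1 was higher and 9 were lower. The lower genes included components of elastic fibres. Fbln5, which binds elastin, stood at 106 and 117 CPM in telencephalic and at 43.3 and 45.3 CPM in hindbrain tissue (-1.33 ± 0.12, adjusted p = 3.87e-05). The microfibril protein Mfap4 stood at 105 and 116 CPM against 46.1 and 51.5 CPM (-1.18 ± 0.12, adjusted p = 8.94e-05). Lox, which cross-links collagen and elastin, stood at 131 and 146 CPM against 52.3 and 63.4 CPM (-1.26 ± 0.15, adjusted p = 0.000251). All 3 were lower in each hindbrain library. Fibrillin Fbn1 stood at 1204 and 1119 CPM against 734 and 644 CPM (-0.75 ± 0.12, adjusted p = 0.00202). Vit, or vitrin, stood at 11.6 and 8.7 CPM against 0.726 and 0.519 CPM (-4.01 ± 0.31, adjusted p = 1.05e-05), the widest gap of the list. The basement membrane proteoglycan Hspg2, or perlecan, was lower by a smaller amount (-0.68 ± 0.11, adjusted p = 0.00226).

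Laminins, the base of the basement membrane, had 2 lower calls of 11 and no higher one. Lama1 stood at 24.3 and 28.9 CPM against 9.31 and 7.6 CPM (-1.65 ± 0.23, adjusted p = 0.000967), and Lama5 at 176 and 196 CPM against 110 and 115 CPM (-0.72 ± 0.11, adjusted p = 0.00178). Of 40 collagens 6 were higher and 1 lower, with 2 calls left without telencephalic replicate 1 and 3 without any 1 of the other whole-tissue libraries. Col1a1, a fibrillar collagen of fibroblasts, stood at 56.2 and 77.9 CPM against 180 and 246 CPM (1.68 ± 0.23, adjusted p = 0.000816). Col8a1 stood at 275 and 262 CPM against 508 and 656 CPM (1.12 ± 0.13, adjusted p = 0.00021). Thsd4, a secreted thrombospondin-repeat protein that associates with fibrillin, was higher as well, at 1.96 and 2.73 CPM against 57.2 and 62.6 CPM (4.72 ± 0.29, adjusted p = 1.42e-06). The related Adamtsl3 stood at 12.2 and 9.85 CPM against 77.2 and 76.9 CPM (2.79 ± 0.17, adjusted p = 1.55e-06). Reln, a secreted glycoprotein that guides migrating neurons, stood at 5.32 and 8.07 CPM against 35.9 and 23.8 CPM (2.18 ± 0.28, adjusted p = 0.000451).

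Of 16 markers of the choroid epithelium, 2 were higher and 3 lower (31.2%, against 5.79% of all genes), with a median of -0.18. A single call was left without telencephalic replicate 1 and 2 without telencephalic replicate 2 or hindbrain replicate 2. Their sum, most of it Ttr, was lower in both hindbrain libraries, at 196468 and 180942 CPM in telencephalic and 149721 and 151713 CPM in hindbrain tissue. Markers of other cell types also differed. In bulk tissue, fewer cells of a type and less RNA per cell cannot be told apart, and this holds for every difference above. Of 20 mesenchymal markers, 10 were higher and none lower (50%), with a median of 0.88; 2 were called without telencephalic replicate 1 and 5 without hindbrain replicate 2. Their summed level was 1301 and 1563 CPM in telencephalic and 1986 and 2232 CPM in hindbrain tissue, and none of the 20 was at 0 in either region. The part of this difference in the collagen, Aldh1a2 and other stromal results was not tested. Of 17 endothelial markers 1 was called, and their sum overlapped between the regions, at 867 and 875 CPM against 863 and 938 CPM. Vwf, an endothelial gene counted in the coagulation list and not among the 17, was called higher. None of 12 mural markers was called by edgeR or DESeq2, with 1 at an unadjusted p below 0.05, and their sum overlapped too, at 447 and 465 CPM against 408 and 498 CPM. Markers of motile cilia had 4 lower calls of 29 and none higher, with 2 left without telencephalic replicate 1, 1 without telencephalic replicate 2 or hindbrain replicate 1, and 7 with the replicate number as a block. The share called of these cilia markers was 13.8%, and their sum was 2218 and 2068 CPM against 1801 and 1690 CPM. Of 15 markers of meninges and melanocytes, 5 were higher and 1 lower (40%), with 3 calls left without either telencephalic library or hindbrain replicate 1. The sum of all 16 in the table was 652 and 686 CPM against 956 and 855 CPM. Of 15 markers of neural progenitors and glia, 5 were higher and none lower (33.3%), with 2 left without either telencephalic library or hindbrain replicate 1. The sum of all 17 in the table was 734 and 744 CPM against 904 and 860 CPM. In both of these lists 1 marker was at 0 in telencephalic tissue, and the part of either difference in the other results was not tested. Macrophage markers were positive in sign for 17 of 18, but only the receptor Csf1r was called (0.62 ± 0.16, adjusted p = 0.0457). Its adjusted p was 0.36 without telencephalic replicate 1, 0.218 without telencephalic replicate 2, 0.0733 without hindbrain replicate 1 and 0.299 without hindbrain replicate 2. With the replicate number as a block 3 macrophage markers were called.

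Genes of neutrophil granules separated the regions. Of 13 tested, 9 were higher in hindbrain tissue and none lower (69.2%), with 5 left without either telencephalic library. The summed level of all 16 markers in the table was 6.12 and 8.8 CPM in telencephalic and 85.6 and 65.4 CPM in hindbrain tissue, and 1 of the 16 was at 0 in telencephalic tissue. Ngp, a granule protein, had 9 and 4 counts against 385 and 278, a difference of 4.83 ± 0.59 (adjusted p = 0.000305). S100a8 had 10 and 4 counts against 342 and 265 (4.60 ± 0.58, adjusted p = 0.000406), and its partner in calprotectin, S100a9, 12 and 4 counts against 458 and 264 (4.66 ± 0.59, adjusted p = 0.000437). Lcn2, an iron-scavenging granule protein, had 6 and 8 counts against 322 and 151 (4.16 ± 0.52, adjusted p = 0.000394). Both hindbrain libraries were high and both telencephalic libraries low. Markers of red blood cells moved in the same direction. Of 9 tested, 2 were higher and none lower, 9 were positive in sign and the median was 1.11. None of these calls was left without telencephalic replicate 1 or either hindbrain library, and 1 without telencephalic replicate 2. The sum of all 15 in the table was 38.7 and 45.7 CPM against 84.1 and 74.6 CPM, and 4 of them were at 0 in each region. Their part in the neutrophil result was not tested.

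Several neuronal genes were uneven between the hindbrain libraries. Eomes, a T-box factor of rhombic lip and cortical progenitors, had 6 and 3 counts in telencephalic tissue and 267 and 39 in hindbrain tissue. Neurod1, a factor of differentiating neurons, had 15 and 2 counts against 312 and 42, and Barhl2 had 5 and 1 against 100 and 22. Other genes of the rhombic lip, chosen after their values were seen, followed: Atoh1 had 0 and 0 counts against 68 and 11, and Cbln1 5 and 1 against 174 and 61. All 5 were higher in hindbrain replicate 1 than in hindbrain replicate 2, and over the telencephalic libraries in both. Pax6, looked at with them, stood at 3.3 and 3.88 CPM in telencephalic and at 10.6 and 2.88 CPM in hindbrain tissue. Its value in hindbrain replicate 2 was thus below both telencephalic libraries. Eomes, Neurod1 and Barhl2 were called with all libraries (adjusted p = 0.0208, 0.0389 and 0.0403). Without hindbrain replicate 1 the adjusted p was 0.385 for Eomes, 0.583 for Neurod1 and 0.458 for Barhl2. Without telencephalic replicate 1 it was 0.238, 0.159 and 0.236, without telencephalic replicate 2 0.193, 0.301 and 0.31, and DESeq2 gave 0.344 for Neurod1. The neuronal marker Syt1, a synaptic vesicle protein, did not show this unevenness, at 10.7 and 8.91 CPM against 27.9 and 31.7 CPM (1.59 ± 0.17, adjusted p = 0.000139). Among 19 neuronal markers 3 were higher and 1 lower, with 1 left without telencephalic replicate 1, telencephalic replicate 2 or hindbrain replicate 1, and 8 with the replicate number as a block. The summed neuronal markers were 130 and 117 CPM against 192 and 170 CPM. Myh8, a skeletal muscle myosin, had 2 and 0 counts against 140 and 96, a ratio of 66.4-fold with a counting interval from 18.2 to 552. The muscle genes Myh3, Acta1 and Ckm had at most 3 counts in any whole-tissue library, and Tnnt3 had 8 and 0 counts against 30 and 32.

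**Figure D4:**
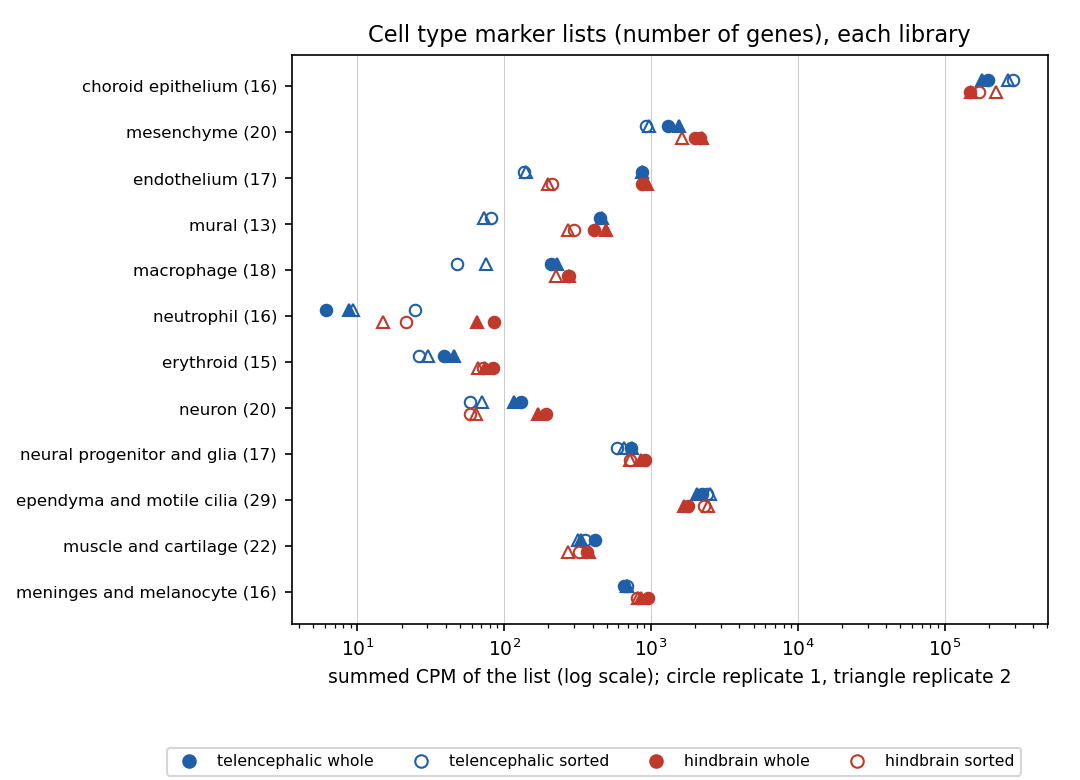
Summed CPM (log scale) of 12 marker lists in each of the 8 libraries; filled symbols are whole tissue and open symbols sorted cells, blue telencephalic and red hindbrain, circles replicate 1 and triangles replicate 2. In whole tissue the neutrophil sum separates the regions most, at 6.12 and 8.8 against 85.6 and 65.4 CPM, while the endothelial and mural sums overlap.

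The region difference was also measured in sorted epithelial cells, in libraries that share none with the whole tissue. Both comparisons came from the same fit, with a shared estimate of the spread of each gene. The 2 sets of calls are therefore not independent, and their overlap is a description. Of the 909 whole-tissue calls, 677 were called in the same direction in sorted cells. That is 74.5% of the whole-tissue calls and 28.4% of the 2383 sorted-cell calls (15.2% of genes tested). Hindbrain was higher in both for 391 genes and lower in both for 286, where sorted cells alone had 9.06% of genes called higher and 6.12% lower. In opposite directions 7 genes were called in both, and 856 of the 909 (94.2%) had the same sign. Genes called in whole tissue and not in sorted cells numbered 225, and for 27 of these the difference between the region effects was itself called. The shared count was 262 without telencephalic replicate 1, 333 without telencephalic replicate 2, 449 without hindbrain replicate 1 and 380 without hindbrain replicate 2 of the whole tissue.

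Macrophage, mesenchymal, mural and endothelial markers were also present in the sorted libraries, where their median differences were larger than in whole tissue. Of 18 macrophage markers 17 were higher in sorted hindbrain cells and none lower, with a median of 2.19, beside 0.47 in whole tissue. Their sum was 47.9 and 75 CPM in sorted telencephalic and 272 and 225 CPM in sorted hindbrain cells. Of 20 mesenchymal markers 16 were higher and none lower (median 1.85), and their sum was 926 and 965 CPM against 2160 and 1623 CPM. Of 12 mural markers 8 were higher and none lower (median 1.49), with sums of 81.9 and 73.1 CPM against 301 and 273 CPM. Of 17 endothelial markers 7 were higher and 1 lower (median 1.00), with sums of 136 and 140 CPM against 211 and 199 CPM, and 5 calls were left without sorted telencephalic replicate 2. The part of these markers in the sorted-cell and interaction results was not tested.

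The sorted-cell values of 9 genes named above had the same sign as in whole tissue. Gdf7 differed by 7.34 there, Penk by 5.42, Shh by 5.84, Meis1 by 6.40, Ngfr by 3.96 and Slc4a10 by 1.65, and Dmrt3 by -7.28, Six3 by -5.63 and Chodl by -3.92. The rule for naming genes takes in genes called in both comparisons, so this is a description. All 9 were called in sorted cells, with adjusted p-values from 3.38e-08 (Six3) to 1.48e-05 (Shh). For none of the 9 was the difference between the region effects called, with interaction adjusted p-values from 0.33 for Penk to 0.97 for Shh and Ngfr. Among genes higher in whole tissue but not called in sorted cells, Wnt4 had 0.74 in sorted cells (adjusted p = 0.133, interaction adjusted p = 0.22) and Vwf, the von Willebrand factor of endothelium, 1.66 (adjusted p = 0.0658, interaction adjusted p = 0.86).

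The difference between the region effects, the interaction, was called for 211 genes (1.34%), 38 above 0 and 173 below 0, and for 337 with the replicate number as a block. It was called for 81 without telencephalic replicate 1, 58 without telencephalic replicate 2, 124 without hindbrain replicate 1 and 133 without hindbrain replicate 2 of the whole tissue, and for 98 without sorted telencephalic replicate 1 and 473 without sorted hindbrain replicate 2. Of the 909 whole-tissue calls, 62 were among the 211, and 32 of the 62 had the larger absolute fold change in whole tissue. The text names 20 genes with such a call. Of these, Cdh5, Dlk1, Errfi1, Fmo2, Lox, Reln and Svep1 had it without each of the 8 libraries in turn. The other 13 lost it without at least 1 library, 12 of them without telencephalic replicate 2, 10 without telencephalic replicate 1 and 9 without sorted telencephalic replicate 1, at adjusted p-values from 0.05 to 0.147, and none changed sign. Neutrophil genes made up part of these: S100a9 differed by 4.66 in whole tissue and by -0.11 in sorted cells (interaction adjusted p = 0.00855), and Ngp by 4.83 and -0.08 (0.0074). None of the 13 neutrophil markers was called in sorted cells by edgeR or DESeq2, with 1 at an unadjusted p below 0.05. Complement C3 stood at 0.367 and 0.524 CPM against 3.23 and 5.9 CPM in whole tissue (3.38 ± 0.50, adjusted p = 0.00121) and differed by -0.30 in sorted cells (interaction adjusted p = 0.0116).

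Several matrix genes were lower in hindbrain whole tissue and had a called difference from the sorted-cell effect. Lox differed by -1.26 in whole tissue and by 0.25 in sorted cells (interaction adjusted p = 0.00366), Mfap4 by -1.18 and -0.24 (0.0147), and Lama1 by -1.65 and 0.46 (0.00743). Fmo2, a flavin monooxygenase, stood at 32.5 and 36.5 CPM against 4.31 and 4.82 CPM in whole tissue (-2.92 ± 0.33, adjusted p = 0.000189) and differed by 0.44 in sorted cells (interaction adjusted p = 0.00438). Igfbp3 differed by -1.65 and 0.90 (interaction adjusted p = 0.0103). For these 5 genes the sorted-cell difference did not pass the test, with adjusted p-values of 0.311 for Lox, 0.205 for Mfap4, 0.223 for Lama1, 0.472 for Fmo2 and 0.138 for Igfbp3. Called in opposite directions were Svep1, a large adhesion protein of the matrix, with -1.19 in whole tissue and 1.06 in sorted cells, and Errfi1, a feedback inhibitor of the EGF receptor, with -0.84 and 0.58. Reln was also called in both, with 2.18 in whole tissue and -1.03 in sorted cells (interaction adjusted p = 0.00241). Other genes differed in the same direction by more in sorted cells: Dlk1 by 2.59 in whole tissue and 4.90 in sorted cells (interaction adjusted p = 0.00194), Hhip by 1.53 and 3.47 (0.0093), Sod3 by 1.59 and 2.79 (0.0097), Wnt5a by 1.56 and 2.40 (0.0197), Slit3 by -0.98 and -1.99 (0.0053) and Rspo2 by -3.71 and -5.22 (0.022). These stand beside the macrophage, mesenchymal and mural markers higher in sorted hindbrain cells, whose part was not tested. The endothelial marker Cdh5 differed by 0.47 ± 0.12 in whole tissue (adjusted p = 0.0402) and by 2.09 in sorted cells (interaction adjusted p = 0.00179). Its whole-tissue p was 0.384 without telencephalic replicate 1, 0.147 without telencephalic replicate 2, 0.0926 without hindbrain replicate 1, 0.242 without hindbrain replicate 2, 0.0604 without sorted telencephalic replicate 1 and 0.0605 without sorted telencephalic replicate 2.

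**Figure D5:**
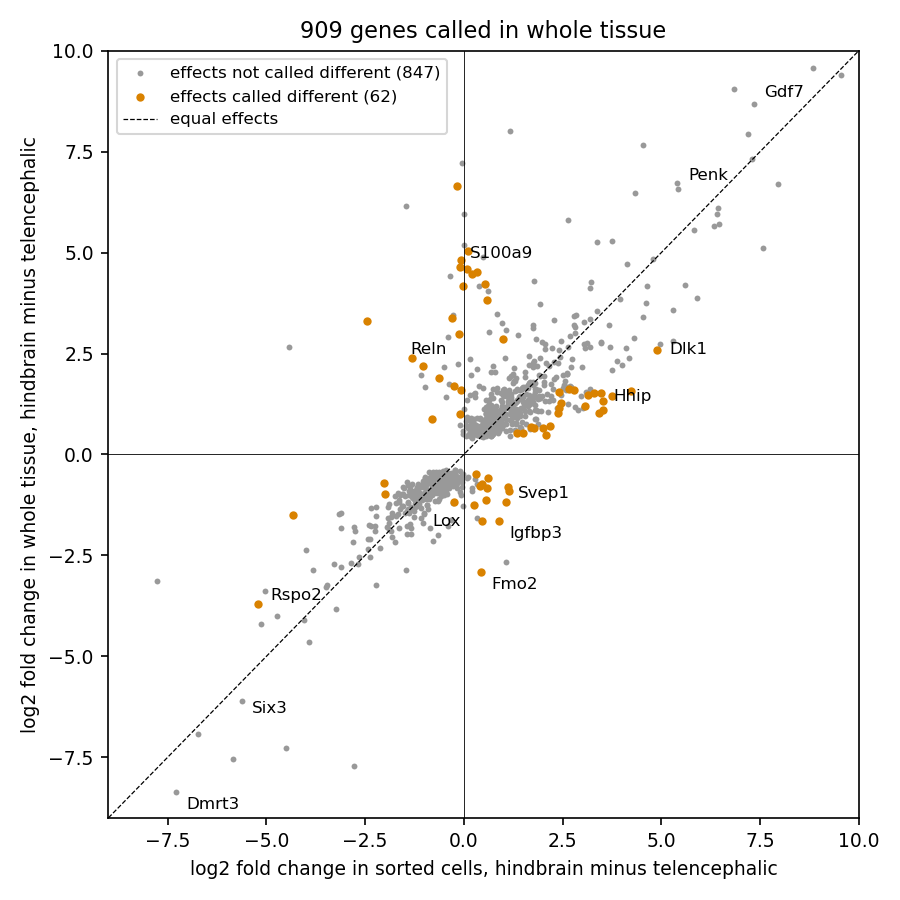
Fitted log2 fold change, hindbrain minus telencephalic, in sorted cells (horizontal) and in whole tissue (vertical) for the 909 genes called in whole tissue; orange marks the 62 whose region effects were called different and the dashed line equal effects. Most genes lie in the quadrants of equal sign, while S100a9, Fmo2, Igfbp3 and Svep1 lie away from the dashed line.

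Most called genes belong to none of the lists or families described: 630 of the 909. At high levels, Pcp4l1, a small protein related to Pcp4, stood at 381 and 315 CPM in telencephalic and at 963 and 961 CPM in hindbrain tissue (1.47 ± 0.12, adjusted p = 2.21e-05). Prps2, an enzyme of nucleotide synthesis, stood at 684 and 601 CPM against 1237 and 1117 CPM (0.87 ± 0.12, adjusted p = 0.000736). The adhesion molecule Vcam1 was lower, at 623 and 652 CPM against 312 and 316 CPM (-1.02 ± 0.14, adjusted p = 0.000631). The regions did not overlap for any of the 3. Sidt1, a membrane protein of the SID1 family, was higher, at 1.35 and 2.93 CPM against 23.5 and 20.6 CPM (3.44 ± 0.38, adjusted p = 0.000171). Ltc4s, the synthase of leukotriene C4, was lower, at 13 and 14.5 CPM against 2.42 and 1.79 CPM (-2.69 ± 0.36, adjusted p = 0.000636). None of 26 cell cycle genes was called by edgeR, with 10 at an unadjusted p below 0.05, 2 called by DESeq2 and 3 with the replicate number as a block. However, 25 of the 26 were positive in sign, with a median of 0.46, beside 0.005 over all genes tested. Their sum was 910 and 894 CPM in telencephalic and 1136 and 1173 CPM in hindbrain tissue. In sorted cells, 10 were called higher and 1 lower. None of 23 genes of oxidative phosphorylation was called by edgeR, with 3 at an unadjusted p below 0.05, 1 called by DESeq2 and 1 with the replicate number as a block.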

How the data were processed

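RNA was measured in whole choroid plexus of both regions (4 libraries) and in sorted epithelial cells (4 libraries). Per the labels' protocols, total RNA was pre-amplified as cDNA and made into paired-end libraries by steps that mark no strand. Build mm9 and the tools HTSeq, TopHat2 2.0.4, CASAVA 1.8.2, DESeq 1 and Bowtie2 2.0.5 come from the submitters' processing notes. Which annotation and strand setting were used is not given in the sources used here. Deposited values are read counts per gene symbol, with no normalization by the authors: 23284 genes in 8 columns, each matched to its sample by name. Samples were grouped by their titles.

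The counts were fitted with edgeR 4.0.16 (R 4.3.3): filterByExpr (minimum count 10, minimum total 15), TMM factors, 4 group means over all 8 libraries and quasi-likelihood F tests, with Benjamini-Hochberg adjustment over the 15698 genes tested. Contrasts were the region difference (hindbrain minus telencephalic) of whole tissue, that of sorted cells, and the first minus the second (the interaction). With 2 libraries a group, p-values measure the spread between these libraries. Pre-amplified reads without molecular identifiers are not independent molecules, so counting intervals (exact, 95%) and the floor of 3 counts cover counting error only. The code was tested on simulated data. Alternatives were DESeq2 1.42.0 size factors and model, RLE factors, library totals, no filter, the whole-tissue libraries alone, a replicate block, a test against a fold of 1.5, and each library left out.

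The design text pairs the regions by brain. Deviations of same-numbered libraries from their group means correlated at 0.193 in whole tissue and 0.145 in sorted cells, across 15698 genes.

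The gene lists (36 by hand, with 907 of 910 symbols found, and 43 families by symbol pattern) and the rule for naming genes were chosen with earlier results of these data known. Named genes were the 15 called per direction with the largest fold change (at least 10 CPM, no predicted genes), the 8 with the largest CPM difference, up to 6 called members per list and direction, 10 per direction with a called interaction and 10 called in both comparisons. Promoters were read from the RefSeq table of GRCm38.p6, not from mm9, and the count table gives no coordinates. A few list members are counted but not reported here by name.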

Additional observations from a re-analysis of the deposited data

Results flagged for a closer look

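The region difference, hindbrain minus telencephalic, was called different between whole tissue and sorted cells by the interaction test of edgeR for 20 genes named in the text. Over all genes 38 interactions were called above 0 and 173 below 0. The values below are the whole-tissue log2 difference minus that in sorted cells. In sorted cells the summed neutrophil markers were 24.8 and 9.36 CPM in telencephalic and 21.5 and 15 CPM in hindbrain libraries, and the summed mesenchymal markers 926 and 965 CPM against 2160 and 1623 CPM. The summed endothelial markers were 136 and 140 CPM against 211 and 199 CPM. The part of these markers in the results below was not tested.

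Values above 0 with a whole-tissue difference above 0 belonged to granule and complement genes: 4.91 for Ngp, 4.76 for S100a9, 4.54 for S100a8, 4.18 for Lcn2 and 3.69 for C3, and to Reln with 3.22. The interaction was 1.51 for Rspo2 and 1.01 for Slit3, both of which were lower in hindbrain tissue in either preparation and by more in sorted cells.

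Values below 0 belonged in part to genes lower in hindbrain whole tissue: -3.35 for Fmo2, -2.55 for Igfbp3, -2.25 for Svep1, -2.11 for Lama1, -1.50 for Lox, -1.42 for Errfi1 and -0.93 for Mfap4. Genes higher in both preparations, and by more in sorted cells, had -2.31 for Dlk1, -1.94 for Hhip, -1.61 for Cdh5, -1.19 for Sod3 and -0.84 for Wnt5a. Adjusted p-values of the 20 interactions lay between 0.00179 for Cdh5 and Svep1 and 0.022 for Rspo2, and 7 were called without each of the 8 libraries in turn.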

How the results depend on the processing

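With 2 libraries a group and 4 residual degrees of freedom, the number of calls depended on which libraries entered. Whole-tissue calls numbered 909, and 908 with RLE factors, 869 with library totals, 1215 with no filter and 1055 with DESeq2. They numbered 1587 from the whole-tissue libraries alone and 280 against a fold of 1.5, and lay between 316 and 1341 when each library was left out in turn. Calls shared with sorted cells numbered 208 against a fold of 1.5, and lay between 262 and 865 with each library left out. Interaction calls numbered 441 with no filter, 328 with DESeq2 and 92 against a fold of 1.5, and lay between 58 and 473 with each library left out. Where a whole-tissue library was left out, its partner was taken to vary like the other groups. The causes of these shifts were not tested, beyond the fewer samples or the wider null that the alternatives set.

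With the replicate number as a replicate block, whole-tissue calls numbered 1195, interaction calls 337, and whole-tissue calls from those libraries alone 3538 with the block. The block lost 3 of the 909 calls and changed no call of a named gene. Over 115 genes named with values, 1791 of 1840 alternative values kept direction and side of the threshold, 46 lost the call, 3 gained one and 0 reversed, and 20 of the losses came from the test against a fold of 1.5. Of 1264 list counts under alternatives, 829 were within 1.5 times the main count.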
